A study of Rattus norvegicus with 8 samples.

Results

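The proteasome subunit and ubiquitin-conjugating enzyme genes described here are those whose name on the array begins with Psma to Psmg and a digit, or with Ube2. The immunoproteasome subunits Psmb8, Psmb9 and Psmb10 were left out. By this rule 76 of 26258 gene names on the array were taken, on 208 of the 42877 spots of each array that were not controls. They were read by 91 probes and comprised 16 subunits of the core particle, 17 subunits of the regulatory cap, 11 other proteasome factors (activators, the inhibitor and assembly chaperones) and 30 E2 or E2-like enzymes. The other 2 names met the pattern only: Psmc3ip, a partner of the meiotic recombinase, and Ube2cbp, which RefSeq now names Ube3d, an E3 ligase.

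Pituitaries came from lactating Wistar rat dams on postpartum day 7. The 2 groups were dams exposed to TCDD, a dioxin that activates the aryl hydrocarbon receptor, and control dams, with 4 samples each. Each sample's RNA, labelled with Cy3, was read on its own Agilent array of the rat genome. Dose and exposure day are not in the labels, nor is it stated there whether a sample was 1 animal or a pool, so p-values measure only the spread between these samples.

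The proteasome degrades proteins that carry chains of ubiquitin. Its core particle is a barrel of stacked rings of alpha and beta subunits with the cutting sites inside, and its cap binds ubiquitin, removes it and threads the protein into the barrel through a ring of ATPases. Ubiquitin is activated by an E1 enzyme, passed to an E2, and joined to the substrate with the help of an E3, and related E2 enzymes carry ubiquitin-like modifiers such as NEDD8 and ISG15. In secretory cells such as those of the pituitary the same system clears misfolded proteins drawn out of the endoplasmic reticulum.

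All 76 genes were well above background on all 8 arrays, and 0 of their spots were saturated. The 75th percentile of the signal lay between 765.5 and 897 on the TCDD arrays and between 805.3 and 931.8 on the control arrays, and values below are log2 of the signal over that percentile. All TCDD arrays lay on 1 slide and all control arrays on another, so in every difference given here an effect of the slide and one of TCDD cannot be told apart. Of 6 tested genes of a list of aryl hydrocarbon receptor targets, 6 were higher with TCDD and 2 passed an adjusted p of 0.05 in limma. In bulk tissue, fewer cells of a type and less RNA per cell cannot be told apart. The 6 erythrocyte genes tested, Hba-a1, Hbb-b1, Alas2, Slc4a1, Hbb and Ahsp, were all higher with TCDD. Their mean level, as a deviation from each gene's own mean, lay between −0.014 and 0.65 on the TCDD arrays and between −0.68 and 0.24 on the control arrays. Posterior lobe and neural markers lay between −0.53 and 0.013 on the TCDD arrays and between −0.54 and 0.62 on the control arrays, with 5 of 6 lower in the mean with TCDD. The part of blood and of posterior lobe tissue in the differences below was not tested.

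None of the 76 genes passed an adjusted p of 0.05 in limma (Benjamini-Hochberg over all 17362 genes tested), against 14 of all genes, 0.0806% (0.0576% higher and 0.023% lower with TCDD). At an unadjusted p under 0.05 the count was 5 of 76, of which 4 were higher and 1 lower with TCDD, against 10.7% of all genes (7.76% higher and 2.95% lower). The arrays of the groups did not overlap for 7 members, 6 of them higher and 1 lower with TCDD, against 7.1% of all genes (5.19% higher and 1.91% lower). These counts sit near the background of the arrays, and the core count without overlap was 0 under quantile normalization, median centring and in the deposited values. The 7 members included Psmb1 and Psmb11 in the core, Psmd8 in the cap, the chaperone gene Psmg1, and the E2 genes Ube2d4 and Ube2v2. For groups that do not overlap, an exact two-sided permutation test can only give p = 0.029, the smallest that 70 assignments allow. That value follows from how the 7 were chosen and is no further support for them.

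The intervals were narrow for most core and cap genes and wider for many of the other factors and E2 genes. The 95% interval of the log2 change lay within a 1.2-fold change either way (0.263 on the log2 scale) for 13 of 16 core subunits, 15 of 17 cap subunits, 6 of 11 other proteasome factors and 10 of 30 E2 genes. Within 1.5-fold lay 71 of the 76 members. The other 5 were Psmb11, Psmd10, Ube2c, Ube2d1 and Ube2t. The spread between arrays of a group was smaller in the proteasome genes than over the array: the median standard deviation within groups was 0.065 for the core, 0.059 for the cap, 0.072 for the other factors and 0.11 for the E2 genes, against 0.15 over all genes. The proteasome probes were also bright, with a median signal at the 88.1th percentile of genes tested for the core and the 81.1th for the cap, and the part of brightness in the spread was not tested.

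**Figure D1:**
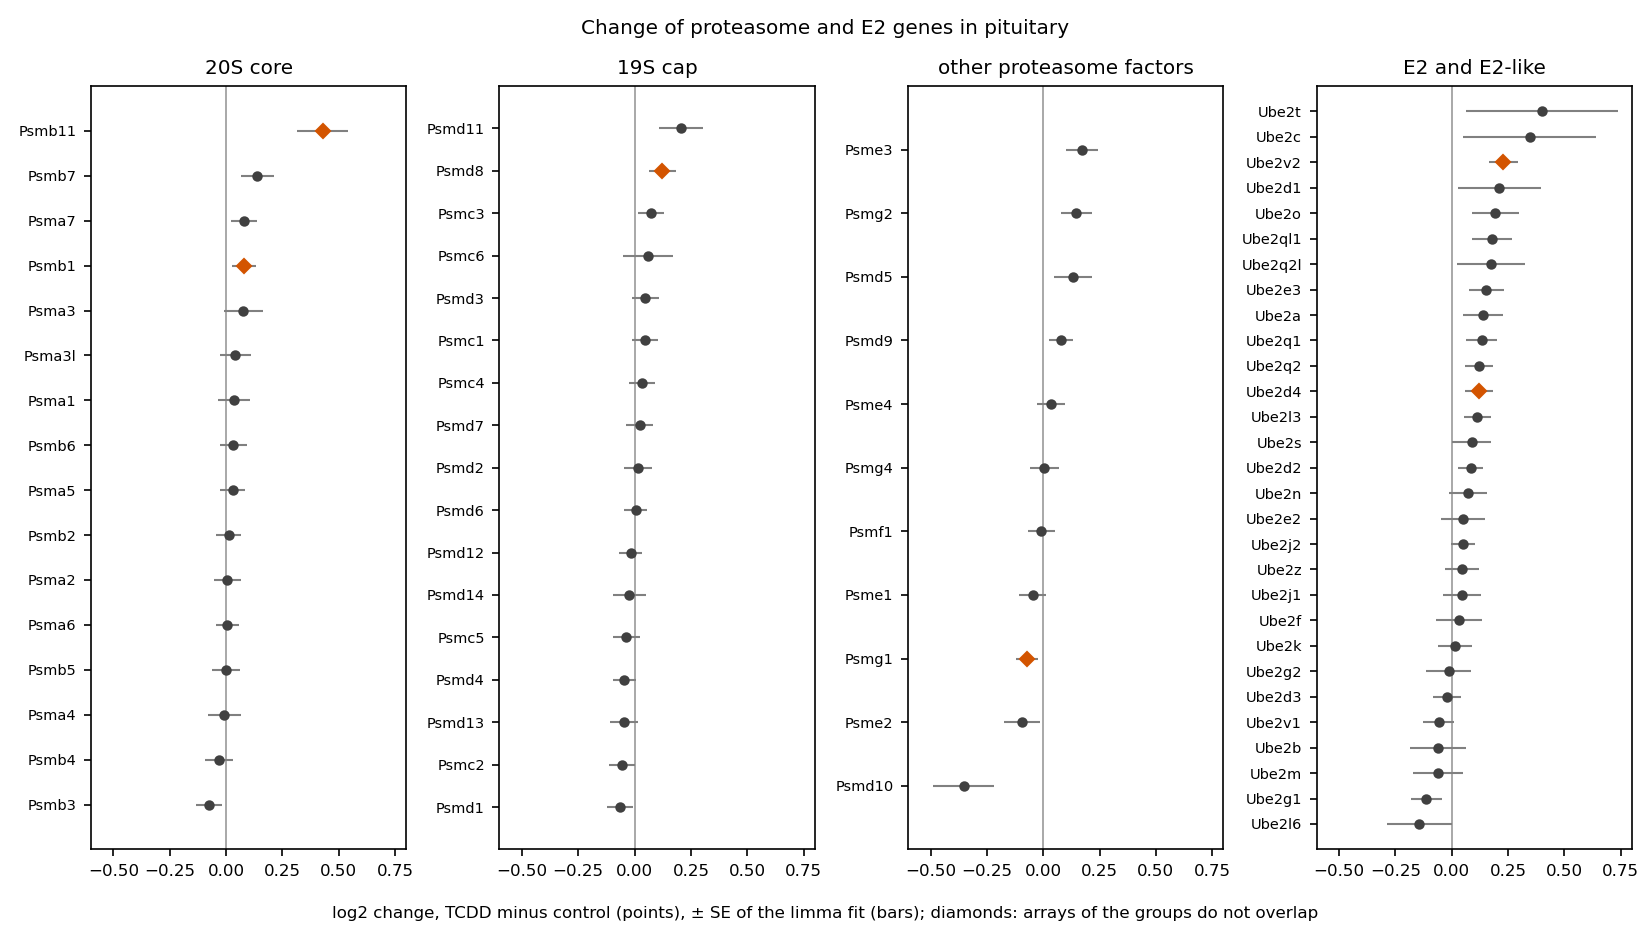
Log2 change (TCDD minus control) of the named member genes in 4 panels by class, with the standard error of the limma fit over 4 and 4 arrays as bars. Orange diamonds mark genes whose arrays do not overlap between the groups. All core and cap points other than Psmb11 at 0.43 and Psmd11 at 0.21 lie between −0.077 and 0.14, and the wide bars at the top of the E2 panel belong to Ube2t and Ube2c.

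Of 16 core subunit genes, 13 were higher and 3 lower with TCDD with the 75th percentile as the scale, but 6 were higher and 10 lower when the arrays were centred on their medians. These counts hold Psma3 under 2 names, and with 1 of them left out 12 of 15 were higher. The median log2 change of the 16 was 0.031, against 0.020 over all genes, of which 56.4% were higher. With median centring it was −0.0076, against −0.018 over all genes, so the scale moved all genes and not the core alone. The alpha subunits, which form the outer rings and the gate, had log2 changes between −0.0085 (Psma4) and 0.081 (Psma7).

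Psma7 had values of 3.44, 3.37, 3.35 and 3.36 on the TCDD arrays, against 3.23, 3.36, 3.36 and 3.26 on the control arrays. The groups overlapped, although TCDD replicate 1 was the highest of the 8 and control replicate 1 the lowest (log2 change 0.081, SE 0.058, limma adjusted p = 0.687). Psma4 read 2.35, 2.25, 2.23 and 2.19 on the TCDD arrays, against 2.29, 2.38, 2.26 and 2.12 on the control arrays, and here control replicate 2 was highest and control replicate 4 lowest (log2 change −0.0085, SE 0.073, limma adjusted p = 0.984). Psma3 was listed on the array under that name and as Psma3l, which RefSeq gives as an older name of the same gene. The probes of the 2 names gave log2 changes of 0.077 and 0.040, with adjusted p of 0.813 and 0.888 in limma, so neither differed beyond the spread between arrays. Psma8, a testis alpha subunit, stood on the array under an older name and was not taken by the rule, with a log2 change of 0.34 and a limma adjusted p = 0.358.

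The catalytic beta subunits are Psmb5 (chymotrypsin-like), Psmb6 (caspase-like) and Psmb7 (trypsin-like). Psmb5 had values of 3.41, 3.45, 3.38 and 3.37 on the TCDD arrays, against 3.35, 3.52, 3.35 and 3.39 on the control arrays. Its groups had the same mean to 2 decimals, and the 95% interval of the log2 change was −0.14 to 0.14. Psmb6 had values of 1.57, 1.52, 1.49 and 1.53 on the TCDD arrays, against 1.45, 1.57, 1.54 and 1.40 on the control arrays, with the TCDD arrays inside the range of the control arrays (log2 change 0.033, SE 0.060, limma adjusted p = 0.900). Psmb7 read 1.61, 1.58, 1.66 and 1.81 on the TCDD arrays, against 1.56, 1.61, 1.51 and 1.43 on the control arrays. TCDD replicate 4 was the highest and control replicate 4 the lowest, and the groups overlapped through control replicate 2 (log2 change 0.14, SE 0.072, limma adjusted p = 0.551). The 3 cutting sites thus differed by between 0.0005 and 0.14 on the log2 scale, none beyond the spread between arrays.

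Among the structural beta subunits, Psmb1 was the one whose arrays separated. It read 2.07, 2.03, 2.05 and 2.11 on the TCDD arrays, against 1.95, 2.02, 1.95 and 2.02 on the control arrays. The lowest TCDD array lay just above the highest control array, and the mean was 1.06-fold that of the controls (log2 change 0.080, SE 0.052, limma adjusted p = 0.655). Psmb3 had values of 3.21, 3.12, 3.11 and 3.20 on the TCDD arrays, against 3.23, 3.31, 3.24 and 3.15 on the control arrays. Control replicate 2 was the highest, the groups overlapped, and the change was the most negative of the core (log2 change −0.077, SE 0.059, limma adjusted p = 0.709). For Psmb4 the values were 4.53, 4.60, 4.45 and 4.49 on the TCDD arrays, against 4.49, 4.63, 4.51 and 4.57 on the control arrays (log2 change −0.032, SE 0.062, limma adjusted p = 0.903). Its groups overlapped over nearly their whole range.

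Psmb11, a beta subunit known in mice and humans from the cortical epithelium of the thymus, had the largest log2 change of the core. Its values were −5.15, −4.91, −4.91 and −5.27 on the TCDD arrays, against −5.28, −5.62, −5.58 and −5.48 on the control arrays. The lowest TCDD array lay 0.01 above the highest control array (log2 change 0.43, SE 0.11, limma adjusted p = 0.294). The signal was dim, at the 8.6th percentile of all genes tested, and with normexp background correction and quantile normalization the log2 change was −0.0061. A second Psmb11 probe, at chr15:32703349-32703408 on rn4, was well above background on 0 of 8 arrays. The probe behind the value lies at chr15:32705019-32705078, further along the same strand. Its last 30 bases are shown because they end in a short repeat, with the 14 bases that repeat every 4 bases in capitals.
Psmb11 probe, bases 31 to 60: ctttagaaacagacagACAAACAAACAAAC
What this probe detects beside Psmb11 was not tested.

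The core subunits shared a pattern across arrays, and through control replicate 2 it did not separate the groups. Control replicate 2 was the highest of the 8 arrays for 11 of 16 core genes, and control replicate 4 the lowest for 7, with Psma3 counted under both its names. The mean level of the core, as a deviation from each gene's own mean, was 0.034, 0.029, 0.017 and 0.026 on the TCDD arrays, against −0.036, 0.049, −0.048 and −0.072 on the control arrays. The TCDD arrays lay close together, above control replicates 1, 3 and 4 and below control replicate 2. Without control replicate 2, 14 of 16 core genes were higher with TCDD (median log2 change 0.058). Without control replicate 4, 9 of 16 were higher (0.0064). For the cap the same measure was 0.022, −0.029, 0.021 and 0.026 on the TCDD arrays, against −0.0051, 0.026, −0.016 and −0.045 on the control arrays, with the groups overlapping throughout.

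**Figure D2:**
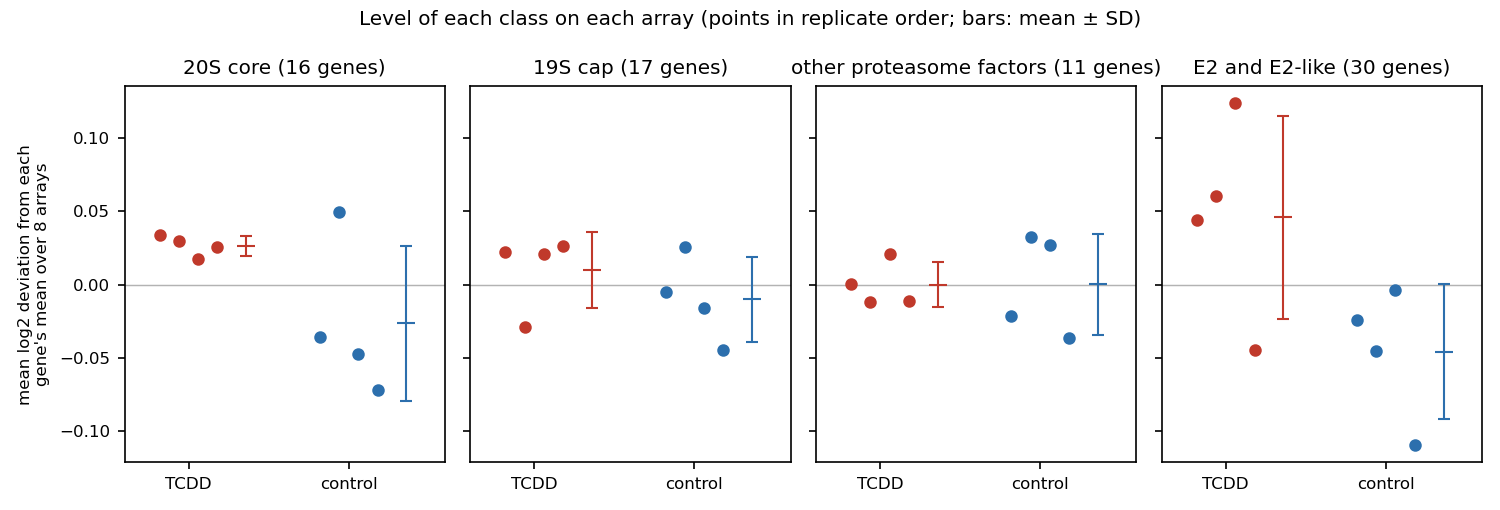
Mean log2 deviation from each gene's own mean over the 8 arrays, for each class, with 1 point per array in replicate order, TCDD in red and control in blue, and the mean ± SD of 4 arrays beside them. The groups overlap in every class. For the E2 genes the TCDD arrays lie between −0.045 and 0.12 and the control arrays between −0.11 and −0.0039.

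Proteasome genes are induced together when proteasome activity falls, by the transcription factor Nfe2l1, and also by its relative Nfe2l2 after electrophile stress. Both bind the antioxidant response element, searched here as TGACNNNGC on both strands. RefSeq promoters of the GRCr8 assembly, from 250 bases before to 50 after the start, were matched for 66 of the 76 names. The letters occurred in 4 of 13 core promoters (30.8%), 2 of 14 cap promoters (14.3%) and 8 of 26 E2 promoters (30.8%), against 12.1% of all 33469 promoters in the table. The median share of G and C was 56.0% in the core, 57.4% in the cap and 66.6% in the E2 promoters, against 51.7% overall. The stretches of the 4 core genes are shown because they hold the letters these factors are known to bind, in capitals, on the gene's strand and wholly before the start.
Psma3, chr6:95219697-95219748, plus strand: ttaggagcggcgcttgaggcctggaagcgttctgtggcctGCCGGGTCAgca
Psmb2, chr5:144254950-144255038, plus strand: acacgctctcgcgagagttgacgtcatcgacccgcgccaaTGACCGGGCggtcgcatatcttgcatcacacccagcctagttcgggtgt
Psmb5, chr15:32047391-32047479, minus strand: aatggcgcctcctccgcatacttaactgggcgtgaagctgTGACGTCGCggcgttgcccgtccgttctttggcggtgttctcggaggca
Psmb6, chr10:55737824-55737887, plus strand: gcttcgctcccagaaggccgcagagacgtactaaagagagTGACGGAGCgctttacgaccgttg
The match in Psma3 is the reverse complement, GCNNNGTCA. A match is a description, not a site or a cause. The log2 changes of these 4 genes were 0.077, 0.011, 0.0005 and 0.033, and all 4 had overlapping groups.

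Other motifs were counted in the same windows. The core of the xenobiotic response element bound by the aryl hydrocarbon receptor, GCGTG on both strands, occurred in 9 of 13 core promoters (69.2%), 7 of 14 cap promoters (50%) and 16 of 26 E2 promoters (61.5%), against 29.7% of all promoters. The CCAAT letters occurred in 9 of 13 core promoters (69.2%), 5 of 14 cap promoters (35.7%) and 8 of 26 E2 promoters (30.8%), against 37.5% overall. The cell cycle genes homology region, TTTGAA on both strands, occurred in 15.4% of core, 21.4% of cap and 7.7% of E2 promoters, against 18.3% of all. In the 11 promoters of the other proteasome factors, the antioxidant response element occurred in 18.2% and GCGTG in 45.5%. There CCAAT occurred in 36.4% and TTTGAA in 9.1%. These shares were not set against promoters of like base composition.

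Cap genes had small changes too. Of 17, 10 were higher and 7 lower with TCDD (6 and 11 when arrays were centred on their medians), with a median log2 change of 0.016. That centring also moved the median over all genes, from 0.020 to −0.018. The ATPase genes Psmc1 to Psmc6, which form the ring that unfolds substrates, lay between −0.057 and 0.073. Psmc1 had values of 1.85, 1.78, 1.84 and 1.82 on the TCDD arrays, against 1.82, 1.86, 1.73 and 1.69 on the control arrays (log2 change 0.047, SE 0.059, limma adjusted p = 0.838). Psmc3 read 1.58, 1.52, 1.57 and 1.64 on the TCDD arrays, against 1.53, 1.56, 1.44 and 1.49 on the control arrays (log2 change 0.073, SE 0.056, limma adjusted p = 0.714). The groups overlapped in both genes, with control replicate 2 highest for Psmc1 and TCDD replicate 4 highest for Psmc3. Psmc2 had 3.62, 3.57, 3.62 and 3.57 on the TCDD arrays, against 3.69, 3.68, 3.69 and 3.55 on the control arrays. It was lower in the mean with TCDD, but its lowest value was that of control replicate 4 (log2 change −0.057, SE 0.057, limma adjusted p = 0.791).

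Among the non-ATPase subunits Psmd8, part of the lid, was the gene whose groups separated. Its values were 1.15, 1.18, 1.27 and 1.30 on the TCDD arrays, against 1.07, 1.14, 1.07 and 1.12 on the control arrays. The lowest TCDD array was only just above the highest control array, and the TCDD mean was 1.09-fold that of the controls (log2 change 0.12, SE 0.059, limma adjusted p = 0.517). Psmd11, a lid scaffold subunit, had the largest log2 change of the cap, with −1.17, −1.40, −1.24 and −1.25 on the TCDD arrays, against −1.27, −1.39, −1.57 and −1.66 on the control arrays. TCDD replicate 2 lay below control replicates 1 and 2, so the groups overlapped (log2 change 0.21, SE 0.098, limma adjusted p = 0.514).

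Psmd1, a scaffold of the base, had the most negative change of the cap. Its values were 4.13, 4.09, 3.98 and 4.06 on the TCDD arrays, against 4.07, 4.12, 4.14 and 4.20 on the control arrays (log2 change −0.066, SE 0.059, limma adjusted p = 0.760). Psmd13 had 0.80, 0.60, 0.77 and 0.76 on the TCDD arrays, against 0.75, 0.80, 0.78 and 0.80 on the control arrays, where TCDD replicate 2 alone was low (log2 change −0.047, SE 0.061, limma adjusted p = 0.843). The groups overlapped in both genes.

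Psmd4 and Psmd14, cap subunits that handle ubiquitin directly, had groups that overlapped. Psmd4, a ubiquitin receptor, read 2.77, 2.82, 2.78 and 2.71 on the TCDD arrays, against 2.79, 2.84, 2.82 and 2.82 on the control arrays (log2 change −0.046, SE 0.052, limma adjusted p = 0.817). For Psmd14, the deubiquitinase of the lid, the values were −0.35, −0.41, −0.32 and −0.35 on the TCDD arrays, against −0.29, −0.18, −0.48 and −0.38 on the control arrays (log2 change −0.024, SE 0.074, limma adjusted p = 0.948). The 95% interval of the log2 change was −0.17 to 0.073 for Psmd4 and −0.19 to 0.15 for Psmd14.

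Of the 11 other proteasome factors, 6 were higher and 5 lower with TCDD, with a median log2 change of 0.0056. The 6 assembly chaperones ranged from −0.35 to 0.15. The activators and the inhibitor, 5 genes in all, ranged from −0.094 to 0.17. Psmg1, which with Psmg2 helps the alpha ring assemble, had 3.22, 3.21, 3.25 and 3.17 on the TCDD arrays, against 3.30, 3.28, 3.31 and 3.26 on the control arrays. All TCDD arrays lay below all control arrays, and the TCDD mean was 0.951-fold that of the controls (log2 change −0.073, SE 0.050, limma adjusted p = 0.673). Its partner Psmg2 leaned the other way, with a log2 change of 0.15 (SE 0.068, limma adjusted p = 0.499). The 2 partners of 1 chaperone therefore had opposite signs.

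Psmd10, a chaperone of the cap base also known as gankyrin, had the largest change of the class and was singled out after its values were seen. It read 0.71, 0.67, 0.42 and 0.41 on the TCDD arrays, against 0.64, 1.13, 1.1 and 0.75 on the control arrays. Control replicates 2 and 3 were high, and control replicate 1 lay below TCDD replicates 1 and 2, so the groups overlapped. The difference was not past the threshold (log2 change −0.35, SE 0.13, limma adjusted p = 0.421, unadjusted p = 0.0303). The other base chaperones were on the opposite side of 0: 0.13 for Psmd5 and 0.078 for Psmd9, neither past the test.

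Among the activators, which dock on the core in place of the cap, Psme3 was likewise chosen after its values were seen. This nuclear activator had −2.07, −1.96, −1.82 and −2.0 on the TCDD arrays, against −2.20, −2.13, −2.06 and −2.15 on the control arrays. TCDD replicate 1 alone lay inside the control range (log2 change 0.17, SE 0.070, limma adjusted p = 0.439, unadjusted p = 0.0391). The paired activators Psme1 and Psme2, known for their induction by interferon, had log2 changes of −0.047 and −0.094. Psme4, a large activator with roles in DNA repair and sperm, had 0.29, 0.35, 0.21 and 0.41 on the TCDD arrays, against 0.27, 0.22, 0.36 and 0.27 on the control arrays (log2 change 0.035, SE 0.064, limma adjusted p = 0.901), and its second probe gave −0.096. The inhibitor gene Psmf1 gave −0.0091 by the probe used and 0.077 by its other probe.

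**Figure D3:**
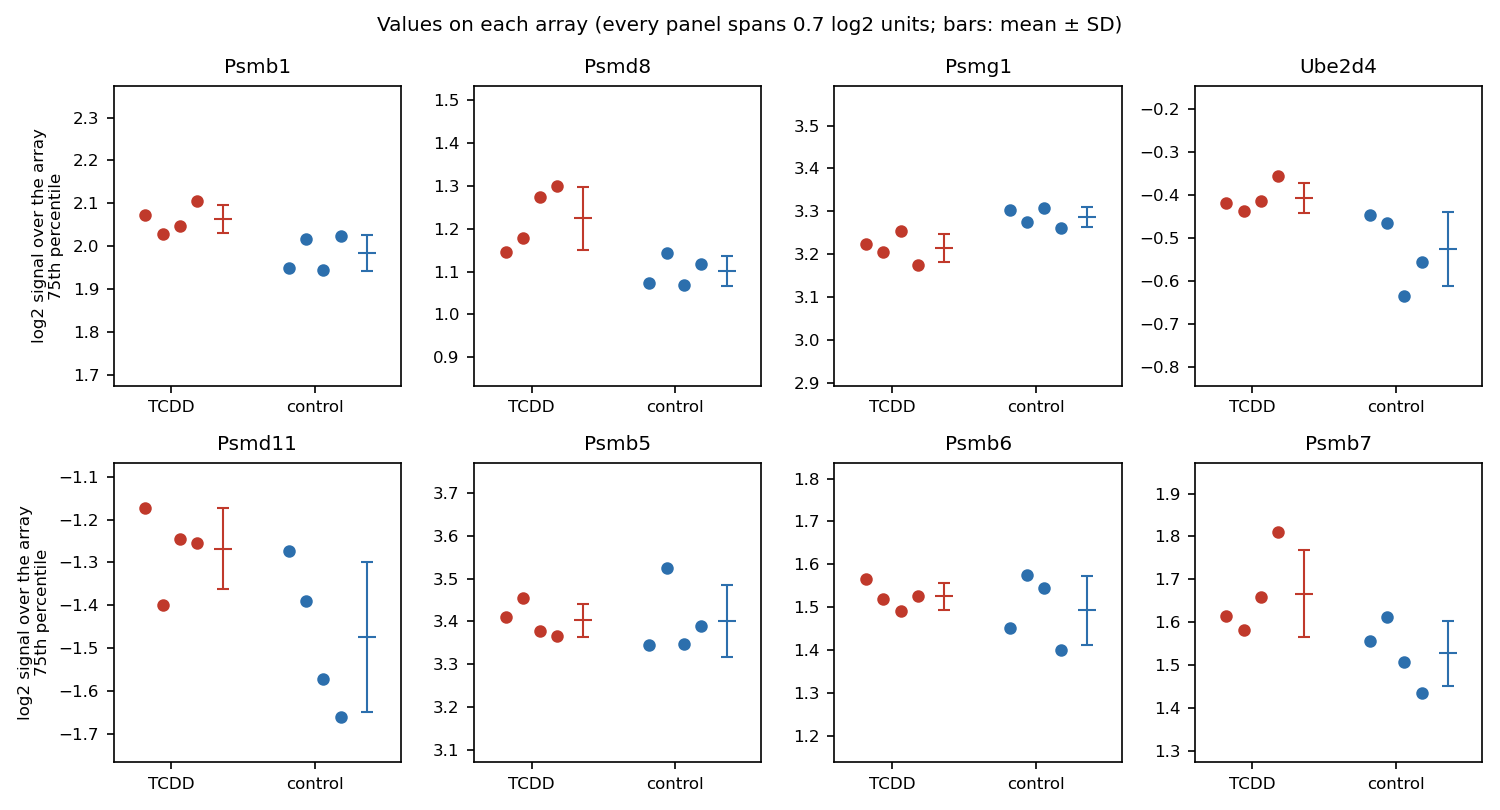
Log2 signal over the array's 75th percentile for 8 members, 1 point per array in replicate order, TCDD in red and control in blue, with mean ± SD of 4 arrays. Each panel spans 0.7 log2 units. Psmb1, Psmd8, Psmg1 and Ube2d4 separate by a narrow margin, and Psmd11 and the catalytic subunits Psmb5, Psmb6 and Psmb7 overlap.

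The E2 genes had the largest median change of the 4 classes and the largest spread between arrays of a group (median SD 0.114, against 0.0591 to 0.0718 in the other classes). Of 30, 23 were higher and 7 lower with TCDD, and 22 were higher with quantile normalization, 21 with median centring, 20 with normexp and 23 in the values the authors deposited. The median log2 change was 0.086, against 0.020 over all genes. With median centring it was 0.048, against −0.018 over all genes. Their mean level was 0.044, 0.060, 0.12 and −0.045 on the TCDD arrays, against −0.024, −0.045, −0.0039 and −0.11 on the control arrays. TCDD replicates 1 to 3 lay above all controls, while TCDD replicate 4 lay below control replicates 1 and 3. Without Ube2c and Ube2t, 2 cell cycle genes described further on and left out after the values were seen, TCDD replicate 4 was at −0.0072, below control replicate 3 (0) but above control replicate 1 (−0.052). The median log2 change of the other 28 was 0.078. For 12 of the 30 genes the lowest of the 8 arrays was control replicate 4.

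Some E2 enzymes carry ubiquitin-like modifiers in place of ubiquitin. Ube2m, which carries NEDD8 to cullins, had 2.38, 2.60, 2.54 and 2.31 on the TCDD arrays, against 2.71, 2.55, 2.56 and 2.25 on the control arrays (log2 change −0.063, SE 0.11, limma adjusted p = 0.894). The groups overlapped. Its partner in the same role, Ube2f, had a log2 change of 0.031. Ube2l6, which carries ISG15 and is induced by interferon, read −2.43, −3.07, −2.49 and −2.59 on the TCDD arrays, against −2.54, −2.33, −2.55 and −2.58 on the control arrays. TCDD replicate 2 was far below the rest and control replicate 2 was the highest (log2 change −0.14, SE 0.14, limma adjusted p = 0.785). Without TCDD replicate 2 the log2 change was −0.0009, and without any other single array it lay between −0.22 and −0.086. Uba7, the E1 of ISG15, had a log2 change of −0.35 (SE 0.15, unadjusted p = 0.0401, limma adjusted p = 0.443).

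Ube2n builds chains linked through lysine 63 together with Ube2v1 or Ube2v2, E2-like proteins that lack the active cysteine. Ube2n had 0.90, 1.08, 0.97 and 1.06 on the TCDD arrays, against 0.88, 1.09, 0.99 and 0.77 on the control arrays (log2 change 0.071, SE 0.084, limma adjusted p = 0.828). The array places its probe on chromosome 1 of rn4, while RefSeq gives the start of the gene on chromosome 7 of GRCr8, so the probe's position lies off that locus. Ube2v2 had −0.94, −0.92, −0.94 and −0.86 on the TCDD arrays, against −1.16, −1.01, −1.17 and −1.23 on the control arrays by its brighter probe. All TCDD arrays lay above all control arrays there (log2 change 0.23, SE 0.064, limma adjusted p = 0.312). Its dimmer probe read −3.31, −3.36, −3.32 and −3.62 on the TCDD arrays, against −3.54, −3.33, −3.24 and −3.46 on the control arrays. By that probe the groups overlapped and the log2 change was −0.0098, so the difference rests on 1 of 2 probes. The brighter probe lies at chr11:87232843-87232902 and the dimmer at chr11:87249648-87249707, both on rn4. Their first 30 bases are set out because the probes read different stretches of the gene.
Ube2v2 brighter probe: cctccatccgttagatttgtaacaaagatt
Ube2v2 dimmer probe: gtggtatagactagaaagttgccttagaaa
Ube2v1 was read by 5 probes, with log2 changes from −0.059 to 0.11. Only the probe used, the brightest, was negative, and with the mean over probes the log2 change was 0.058. Its place among the lower E2 genes thus rests on that probe. RefSeq lists 19 pseudogenes named after Ube2v1. Together with Ube2n, for which it lists 9, these are the members with the most such copies.

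**Figure D4:**
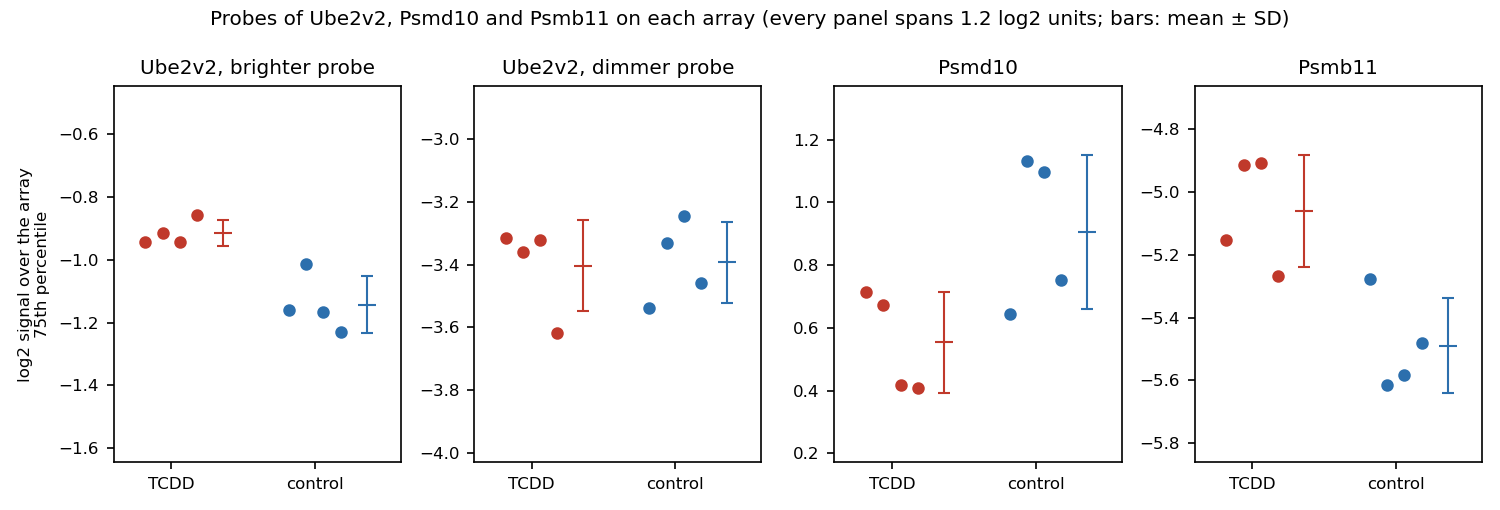
Log2 signal over the array's 75th percentile for both kept probes of Ube2v2 and for Psmd10 and Psmb11, 1 point per array in replicate order, TCDD in red and control in blue, with mean ± SD of 4 arrays. Each panel spans 1.2 log2 units. The brighter Ube2v2 probe separates the groups and the dimmer does not. Psmb11 separates them by a narrow margin, and the groups overlap for Psmd10.

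The Ube2d enzymes start ubiquitin chains with many E3 ligases. Ube2d4, which RefSeq now names Ube2d2b, had −0.42, −0.44, −0.41 and −0.36 on the TCDD arrays, against −0.45, −0.46, −0.63 and −0.56 on the control arrays. The groups were separated by 0.01 between the lowest TCDD and the highest control array (log2 change 0.12, SE 0.062, limma adjusted p = 0.550). Ube2d3 had 2.85, 2.95, 2.83 and 2.76 on the TCDD arrays, against 2.88, 2.91, 2.80 and 2.88 on the control arrays (log2 change −0.021, SE 0.062, limma adjusted p = 0.944), and control values lay between TCDD values. Ube2d2 gave a log2 change of 0.084, and Ube2d1 gave 0.21 with a low control replicate 2 (−1.91). Without that array the log2 change of Ube2d1 was 0.024.
These enzymes are close paralogs, so the probes of Ube2d4 and Ube2d2, the pair of different members with the longest run of bases in common, are shown with that run of 13 bases in capitals.
Ube2d4 probe: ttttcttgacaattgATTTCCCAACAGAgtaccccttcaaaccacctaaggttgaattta
Ube2d2 probe: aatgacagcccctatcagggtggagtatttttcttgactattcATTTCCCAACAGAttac
Probes of different members shared no exact run of 20 bases or more. A run ends at the first mismatch, so this count cannot show that probes are distinct. Beside the capitals the Ube2d4 and Ube2d2 probes match further, with isolated mismatches. Whether either probe detects the other gene was not tested.

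Enzymes of endoplasmic reticulum-associated degradation, Ube2g1, Ube2g2, Ube2j1 and Ube2j2, had log2 changes between −0.11 and 0.050. Ube2g1 was the lowest of them, with 0.36, 0.29, 0.21 and 0.24 on the TCDD arrays, against 0.25, 0.42, 0.42 and 0.46 on the control arrays. TCDD replicates 1 and 2 lay above control replicate 1, so the groups overlapped (log2 change −0.11, SE 0.068, limma adjusted p = 0.619). The large or less studied enzymes Ube2o, Ube2q1, Ube2q2, Ube2q2l and Ube2ql1 all had positive changes, from 0.12 to 0.19, with 0 of 5 past an unadjusted p of 0.05 in limma and 0 of 5 after adjustment. The probe of Ube2ql1 is likewise placed on another chromosome (17 of rn4) than the gene's start in RefSeq (1 of GRCr8), which makes it and Ube2n 2 of the 66 members with both positions. Only chromosome names were compared, not strand or distance along the chromosome. The Ube2a probe used, for example, starts at chrX:7982766 of rn4, minus strand. RefSeq places the Ube2a promoter at chrX:120979834 of GRCr8, plus strand.

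Ube2o, an E2 that also acts as its own ligase and is known in mice for clearing ribosomal proteins from maturing red blood cells, had −1.20, −0.86, −0.85 and −1.0 on the TCDD arrays, against −1.22, −1.32, −0.99 and −1.15 on the control arrays. TCDD replicates 2 and 3 were highest, and the groups overlapped (log2 change 0.19, SE 0.10, limma adjusted p = 0.562). A second Ube2o probe gave 0.17. The erythrocyte markers had a mean level of −0.014, 0.65, 0.52 and 0.51 on the TCDD arrays, against −0.59, −0.68, −0.62 and 0.24 on the control arrays, with TCDD replicate 1 and control replicate 4 nearer the other group in that list. The part of red blood cells in the Ube2o value was not tested. Ube2h, another E2 of red blood cells, had no spot under that name.

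The cell cycle genes Ube2t and Ube2c had the largest log2 changes of the E2 class and the widest errors. Ube2c, which starts chains for the anaphase-promoting complex, had −3.37, −3.53, −3.08 and −4.21 on the TCDD arrays, against −3.34, −3.95, −3.78 and −4.50 on the control arrays (log2 change 0.35, SE 0.29, limma adjusted p = 0.742). Ube2t, the E2 of the Fanconi anaemia DNA repair pathway, had −4.15, −4.33, −3.84 and −5.24 on the TCDD arrays, against −4.23, −4.85, −4.65 and −5.43 on the control arrays (log2 change 0.40, SE 0.34, limma adjusted p = 0.741). In both genes TCDD replicates 1 to 3 and control replicate 1 were the 4 highest arrays, and control replicate 4 was the lowest. Ube2s, which extends the chains that Ube2c begins, did not share that order, with 2.15, 2.41, 2.24 and 2.12 on the TCDD arrays, against 2.04, 2.17, 2.27 and 2.10 on the control arrays (log2 change 0.088, SE 0.085, limma adjusted p = 0.778).

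The same 4 arrays were the highest in a list of proliferating cell markers (Top2a, Ccnb1, Cdk1, Aurkb, Bub1, Birc5, Cdc20, Plk1 and Ccna2). Their mean level was 0.31, 0.30, 0.48 and −0.30 on the TCDD arrays, against 0.38, −0.25, −0.30 and −0.63 on the control arrays. All 9 were higher in the mean with TCDD, against 56.4% of all genes. In limma 0 passed an adjusted p of 0.05 and 1, Aurkb, had an unadjusted p under 0.05, against 10.7% of all genes. Because these levels fall into separate clusters of 4 arrays, no correlation was computed, and the part of dividing cells in the Ube2c and Ube2t values was not tested. For both genes the spread within a group was over 2 times the class median, and the 95% interval ran from −0.33 to 1.02 for Ube2c and from −0.38 to 1.18 for Ube2t. Leaving out 1 array at a time moved the log2 change of Ube2c between 0.15 (without control replicate 4) and 0.57 (without TCDD replicate 4), and that of Ube2t between 0.19 and 0.68 without the same arrays. Without TCDD replicate 3 the changes were 0.19 and 0.22, and without control replicate 1 they were 0.53 and 0.59. With normexp they were 0.096 and 0.14.

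**Figure D5:**
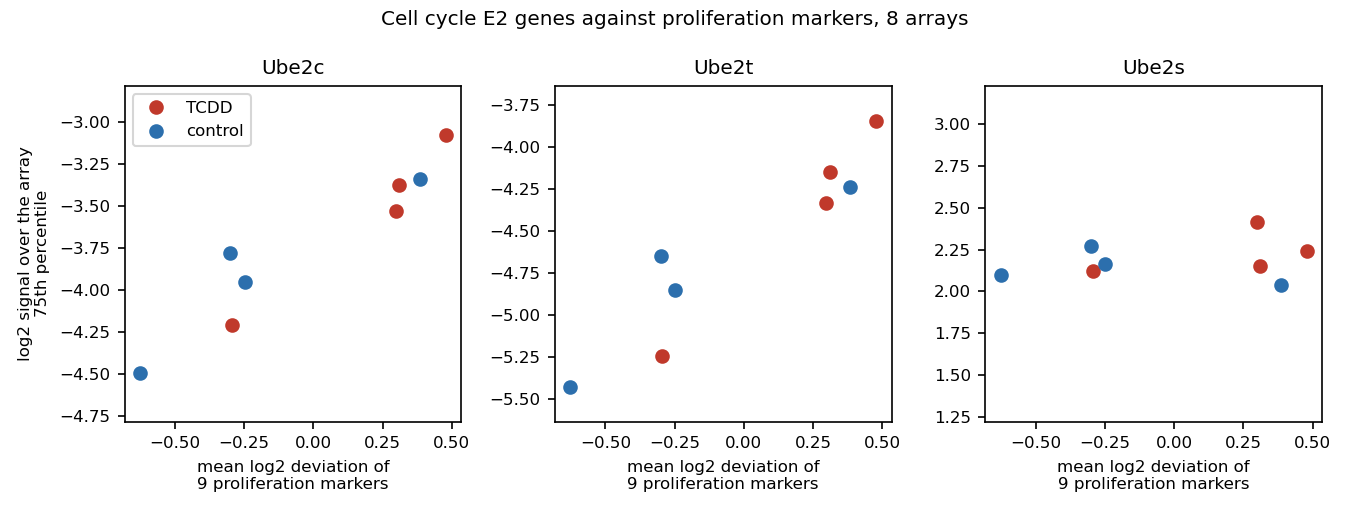
Log2 signal of Ube2c, Ube2t and Ube2s over the array's 75th percentile (vertical axes, each spanning 2 log2 units) against the mean log2 deviation of 9 proliferation markers (horizontal axes), 1 point per array, TCDD in red and control in blue. TCDD replicates 1 to 3 and control replicate 1 form the upper right cluster for Ube2c and Ube2t, while Ube2s stays between 2.04 and 2.41.

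The rest of the pathway was read from lists of other genes. Over all genes 56.4% were higher with TCDD, the median log2 change was 0.020 and 10.7% had an unadjusted p under 0.05 in limma. Of 12 ubiquitin and E1 genes tested, 7 were higher and 5 lower with TCDD, and their median log2 change was 0.0034. By limma 0 of the 12 passed the adjusted threshold and 1 had an unadjusted p under 0.05. The polyubiquitin gene Ubb had the most positive change, 0.089 (limma adjusted p = 0.740), and Uba7 the most negative. Of 30 genes tested in a list of E3 ligases, cullins and their partners, 19 were higher and 11 lower, with a median of 0.021 and 0 past that threshold. The list also held Cdc34, itself an E2 whose name falls outside the Ube2 pattern (log2 change 0.026). The most positive changes were Cul2 (0.25) and Cdc20 (0.18), and the most negative were Skp2 (−0.15) and Syvn1 (−0.12). Cdc20, a partner of the anaphase-promoting complex, is also among the proliferating cell markers above, so its value is the same result. Only Nedd4 in this list had an unadjusted p under 0.05 in limma (0.0425, log2 change 0.17).

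Regulators and partners of the proteasome held 20 tested genes, of which 15 were higher and 5 lower with TCDD, against 56.4% of all genes higher. Their median log2 change was 0.057, against 0.020 over all genes. None passed an adjusted p of 0.05 in limma. An unadjusted p under 0.05 was found for 3 of the 20, Adrm1, Nploc4 and Nfe2l1, against 10.7% of all genes. Adrm1, a ubiquitin receptor of the cap whose name falls outside the Psm pattern, averaged −2.55 ± 0.15 on the TCDD arrays and −2.87 ± 0.087 on the control arrays (SD, n = 4 each). Its groups did not overlap (log2 change 0.32, SE 0.088, limma adjusted p = 0.308). Psmd4, another ubiquitin receptor of the cap, had the opposite sign.

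Nfe2l1, the inducer of proteasome genes named above, averaged −0.80 ± 0.12 on the TCDD arrays and −0.55 ± 0.11 on the control arrays (SD, n = 4 each). The control mean was the higher (log2 change −0.25, SE 0.084, limma adjusted p = 0.370, unadjusted p = 0.0173). Ddi2, the protease that releases Nfe2l1 in its active form, averaged −4.22 ± 0.29 on the TCDD arrays and −4.53 ± 0.047 on the control arrays (SD, n = 4 each). Its groups did not overlap, and its adjusted p was 0.479 in limma. Nfe2l1 and Ddi2 thus lay on opposite sides of 0, neither past the threshold. Of 20 tested genes of this list, 2 had groups that did not overlap, against 7.1% of all genes.

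Of the immunoproteasome subunits left out of the members, Psmb8 had a log2 change of −0.16, Psmb9 of −0.17 and Psmb10 of 0.016. Their adjusted p lay between 0.733 and 0.968 in limma. They replace the catalytic beta subunits after interferon signalling. The mean level of the 3 was 0.034, −0.28, 0.027 and 0.012 on the TCDD arrays, against 0.11, 0.13, 0.062 and −0.089 on the control arrays. TCDD replicate 2 was the lowest of the 8 arrays, and without it the log2 changes were −0.028 for Psmb8, −0.047 for Psmb9 and −0.0087 for Psmb10. Leaving out any other single array gave −0.24 to −0.11 for Psmb8, −0.26 to −0.13 for Psmb9 and −0.019 to 0.051 for Psmb10.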

How the data were processed

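Scanner images were read by the Feature Extraction software of Agilent (10.7.1.1), per the file headers, and the processed signal of each spot is a linear intensity, background-subtracted and detrended by the authors' software. A deposited table gave intensities of the same arrays with nearly 1 shared distribution. How it was scaled is not given in the sources used here, and it served as an alternative. The probe coordinates are on rn4, per the file headers.

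Each array's processed signal was divided by its 75th percentile over non-control spots and put on a log2 scale. Outlier spots were set to missing and the spots of a probe averaged. A probe was kept when well above background on 4 or more arrays, with values on 2 or more arrays of each group, and a gene's brightest kept probe was used, which left 17362 genes. Names were updated through RefSeq for genes other than the members. The comparison was TCDD against control in limma 3.58.1 (lmFit, eBayes) under R 4.3.3, two-sided, with Benjamini-Hochberg adjustment over those genes and a threshold of 0.05, and with an exact permutation test over 70 assignments. With 4 arrays per group, their number limits the precision. On simulated data for this comparison, 50 genes were changed at each of 1.5-, 2-, 4- and 8-fold. There 62% of genes changed 1.5-fold and 80% of genes changed 2-fold were called. In the measured data only 14 genes passed. With fewer strong changes the adjustment is stricter, so the shares called may be lower than in the simulation.

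Values on every array were given for members whose groups do not overlap, for the 3 largest and 3 smallest log2 changes of core, cap and E2, and for members picked for their roles. Other members and, per pathway list, up to 2 changes in each direction could be named. The members and lists were chosen with earlier results of these data known. Same-numbered arrays of the 2 groups did not deviate together (correlations between −0.096 and −0.019), so replicate numbers were not taken as pairs. Alternatives were quantile normalization, median centring, normexp with an offset of 50, other filters and probe rules, other limma settings, the deposited table, a replicate block and leaving out each array. Where a probe lies in its gene (exon, UTR) was not analysed here, and the result of 1 member, which stays in the counts, is not reported here.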

Additional observations from a re-analysis of the deposited data

Results flagged for a closer look

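In 3 of 72 groups of 4 arrays, 1 array stood apart from the others by Dixon's criterion, which chance exceeds in about 5% of groups. For Psmc2, a cap ATPase, control replicate 4 was low (3.55, with the other controls between 3.68 and 3.69), and its gap was 0.924 of the range of the control group. For Ube2l6, the E2 of ISG15, control replicate 2 was high (−2.33, with the other controls between −2.58 and −2.54), and its gap was 0.843 of the range. In the mean level of the cap, TCDD replicate 2 was low (−0.029, with the other TCDD arrays between 0.021 and 0.027), and its gap was 0.894 of the range. Ube2l6 also had a low TCDD replicate 2 (−3.07), in a group that did not exceed the criterion.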

How the results depend on the processing

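In all 19 other settings 0 of the 76 members passed an adjusted p of 0.05 in limma, and 46 members kept 1 sign in every setting. The median over all genes moved between −0.018 and 0.031. Median centring, like the main setting, takes 1 value off each array. It therefore moved the log2 change of every gene by nearly the same amount. The cause of the other shifts below was not tested.

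Centring on the median gave a median log2 change of −0.0076 for the core, −0.023 for the cap and −0.033 for the other factors, and 0.048 for the E2 genes, against 0.086. The number of members whose groups do not overlap, 2 in the core, 1 in the cap, 1 among the other factors and 3 among the E2 genes, changed as follows. Quantile normalization gave 0 core, 3 cap, 0 other and 2 E2. Median centring gave 0 core, 0 cap, 2 other and 1 E2. Normexp with quantile normalization gave 1 core and 3 cap. The mean over probes gave 2 other and 2 E2, and the values the authors deposited gave 0 core, 0 other and 2 E2. Without 1 array at a time the counts ran from 2 to 3 for the core, 1 to 4 for the cap, 1 to 3 for the other factors and 3 to 6 for the E2 genes, and the median log2 changes from 0.0064 to 0.058, −0.0051 to 0.028, −0.0056 to 0.039 and 0.075 to 0.10 in the same order of classes. The share of all genes without overlap was counted in the main setting only. With fewer arrays in a group, any gene more easily lacks overlap, so higher counts there are not a result about the members.

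With the replicate number as a block, 0 members passed, and over all genes 0 did, against 14 without it. Each number correlated better with another number than with its own. Over all genes the adjusted calls numbered 10 higher and 4 lower, and between 0 and 20 higher and 0 and 10 lower in the other settings. At an unadjusted p, 1348 were higher and 512 lower, against 755 and 813 with median centring. Differences under the spread of 4 arrays are not detectable here, and slide and group cannot be told apart.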
